A study of Mus musculus with 19 samples.

Results

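The comparison of Cdk19-null bone marrow (CDK19KO) with wild-type marrow (WT) was taken across every gene that averaged 10 or more normalized counts in the 19 libraries of the study. This gave 13976 of the 34432 genes in the table, measured in the 4 CDK19KO and 3 WT libraries, 7 of 19 in all. Marrow was flushed from the tibiae and femurs of mice aged 8 weeks and frozen untreated. Polyadenylated RNA was then sequenced in pairs. WT and CDK19KO mice are given as C57/BL6 wild type and Cdk19null, and neither is labelled with Cre. Of the other genotypes, VAV carries only the Vav-iCre transgene, whose Vav promoter drives Cre recombinase in blood cells, CDK8KO carries Cdk8flox/flox with Vav-iCre, and DKO combines Cdk8flox/flox, Vav-iCre and Cdk19null. Each of these 3 genotypes had 4 libraries. CDK19KO therefore lacks Cdk19 in every cell of the marrow by its label, including stroma, while Cdk8 is floxed for removal in Cre-expressing cells only. The labels do not say that each library came from a separate mouse, so the p-values measure the spread between libraries, which may be partly technical.

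CDK19 is a cyclin-dependent kinase in the detachable kinase module of Mediator, which passes signals from transcription factors to RNA polymerase II. The module holds a kinase (CDK8 or its paralog CDK19), cyclin C, MED12 or MED12L, and MED13 or MED13L, and it binds core Mediator reversibly. CDK8 and CDK19 are known to phosphorylate transcription factors such as STAT proteins, and in many cell types either kinase can occupy the same position. In marrow the module is known chiefly for roles in signal-dependent transcription in stem, myeloid and lymphoid cells.

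WT libraries held 16376215 to 25580469 reads assigned to genes and CDK19KO libraries 17649591 to 24598256. Marrow markers were present in both genotypes: the neutrophil gene Camp averaged 23514 normalized counts in WT and 20602 in CDK19KO, Elane of early granulocytes 9224 and 8205, Cd79a of B cells 2313 and 2502, and Kit of progenitors 2359 and 2132. CDK19KO replicate 4 stood apart, with 0.636% of its reads in skeletal muscle genes against at most 0.00888% in the other 6 libraries. It lay at 58.3 on the first principal component of the 7 libraries (27.1% of the variance), where the others lay between -20.5 and 7.10. Erythroid genes took 0.779 to 1.26% of reads in WT and 0.724 to 1.74% in CDK19KO. Across genes, the correlation of log2 levels between a WT and a CDK19KO library was 0.962 to 0.979, and between 2 CDK19KO libraries 0.961 to 0.978; genes are not independent replicates.

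The deleted gene was examined first. Cdk19 (ENSMUSG00000038481; GRCm38/mm10 chromosome 10, 40339564 to 40483818, plus strand) stood at 3214, 3216 and 3042 normalized counts in the WT libraries. In CDK19KO it stood at 1174, 1025, 1072 and 1092. Every CDK19KO library was below every WT library, and the CDK19KO libraries lay close to one another. On the log2 scale it fell by 1.53 ± 0.12 (SE; limma adjusted p = 9.8e-07), and an exact two-sided permutation test over the 7 libraries gave p = 0.0286, the smallest these group sizes allow. CDK19KO kept 34.5% of the WT level. A count over the whole gene includes reads from any shortened transcript, so it does not measure the protein. Here and below, log2 fold changes are differences of mean log2(normalized count + 1), a scale on which folds of low genes come out too small, and a gene passed the test at a limma adjusted p under 0.05.

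**Figure D1:**
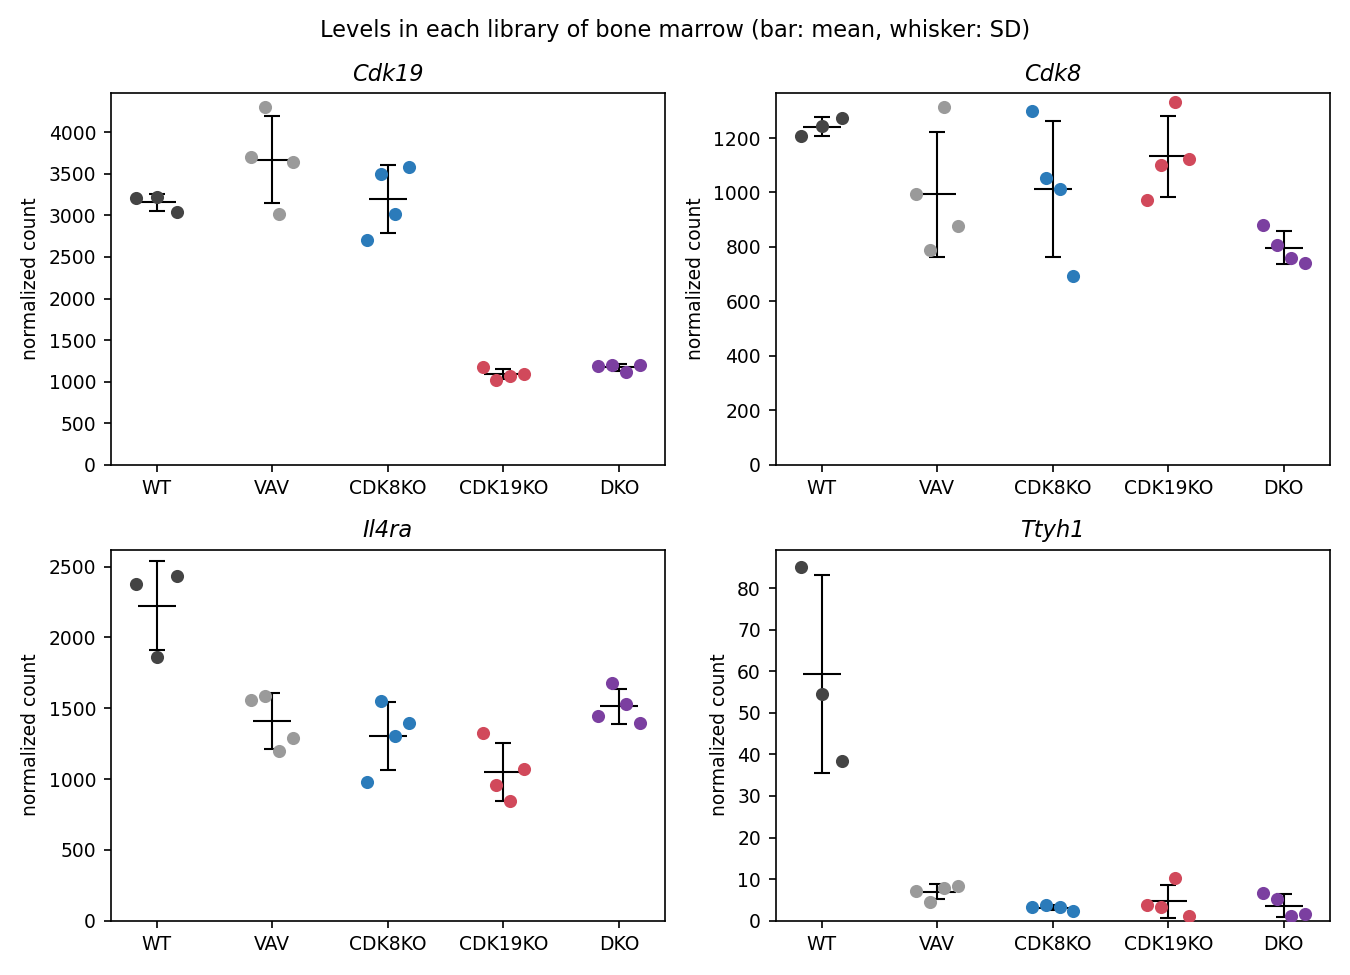
Normalized counts of Cdk19, Cdk8, Il4ra and Ttyh1 in each library of the 5 genotypes; each point is 1 library, the bar is the mean and the whisker the SD. Cdk19 was between 1025 and 1202 in the 8 libraries of CDK19KO and DKO, and Il4ra and Ttyh1 were higher in the 3 WT libraries than in all 16 others.

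The paralog Cdk8 did not pass. It stood at 1206, 1243 and 1275 in WT and at 972, 1102, 1332 and 1124 in CDK19KO, so the groups overlapped. The log2 fold change was -0.14 (95% interval -0.52 to 0.24; exact two-sided permutation test over the 7 libraries, p = 0.286). This interval leaves out a 2-fold change in either direction. The other members were cyclin C (Ccnc), at 0.05 (-0.22 to 0.33), and the module's scaffolds Med12, at 0.05 (-0.27 to 0.37), and Med13, at 0.03 (-0.36 to 0.43). The scaffold paralogs were Med13l, at 0.11 (-0.17 to 0.40), and Med12l, at -0.12 (-0.97 to 0.73). Of the 7 members, 1 passed (Cdk19), beside 0.0215% of all genes tested, and 6 of the 7 intervals lay within a 2-fold change.

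Core Mediator was measured with 26 subunits, none of which passed. Their median log2 fold change was -0.01 against 0.00 over all genes, and all 26 intervals lay within a 2-fold change. The lowest estimates were those of Med17, in the head of the complex (1179, 806 and 909 in WT; 721, 854, 671 and 815 in CDK19KO; -0.32), and Med27 (-0.32). Med16, of the tail, was at 0.21. The 17 transcription kinases and elongation factors of the list that holds CDK9's cyclin T1 (Ccnt1, -0.17) also had no member past the test. Of the 44 genes tested within 5 Mb of Cdk19 on chromosome 10, none passed and the median was -0.03. The groups did not overlap for 3 of them, a share near the 7.61% over all genes tested: Scml4 (-0.55), Bend3 (-0.41) and Crybg1 (0.37), each with a limma adjusted p of 1; these 3 were picked after their values were seen.

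Besides Cdk19, 2 genes passed, so that 3 of 13976 genes were called (0.0215%), all lower in CDK19KO and none higher (0.00%). Before adjustment, p was under 0.05 for 429 genes (3.07%), of which 202 were higher (1.45%) and 227 lower (1.62%). The groups did not overlap for 1063 genes (7.61%), 498 higher (3.56%) and 565 lower (4.04%). edgeR's quasi-likelihood test on the recovered reads also called 3 genes, and DESeq2 called 12, with 2 higher and 10 lower. In limma, a fit of the 2 groups alone called 4 genes, 2 higher and 2 lower. With array weights limma called 7, 2 higher and 5 lower, so the absence of higher calls depended on the fit. Leaving out WT replicate 1 or 3, or CDK19KO replicate 2 or 4, left 1 called gene, Cdk19, in each case.

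The promoters of the other 2 called genes are shown because both genes were high in WT alone, as given below. The windows run from 250 bases before the RefSeq start to the base before the first annotated transcript, as far as the annotation allows, in GRCm38.p6 on the plus strand. Il4ra is chr7:125552021-125552119 and Ttyh1 is chr7:4119280-4119407.
Il4ra: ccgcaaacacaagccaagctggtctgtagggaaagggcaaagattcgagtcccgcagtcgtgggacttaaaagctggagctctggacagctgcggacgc
Ttyh1: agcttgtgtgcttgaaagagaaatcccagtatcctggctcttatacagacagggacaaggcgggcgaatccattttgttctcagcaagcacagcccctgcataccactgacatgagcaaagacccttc
No base is in capitals, since neither window held, on either strand, the STAT motif TTCNNNGAA, the octamer motif ATGCAAAT, the CCAAT box, the GC box with its letters GGGCGG, or the TATA box with its letters TATAAA. Of 32851 RefSeq promoters, the STAT motif was in 2.83% over the same 99 bases and in 3.68% over the same 128 bases. The other motifs, in that order, were in 0.603%, 13.5%, 10.4% and 5.20% over the 99 bases, and in 0.791%, 17.2%, 13.8% and 6.38% over the 128 bases. Over the full 300 bases of each RefSeq promoter, which reach into the transcript, Il4ra held 1 octamer (1.74% of promoters) and 1 GC box (35.7%), and Ttyh1 held 1 CCAAT box (37.4%) and 1 GC box. The absence of these letters from so short a window says nothing about binding.

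Il4ra (ENSMUSG00000030748; chromosome 7, 125552120 to 125579474, plus strand) encodes the receptor chain that interleukin-4 and interleukin-13 share. It stood at 2374, 1864 and 2432 normalized counts in WT. In CDK19KO it stood at 1326, 957, 843 and 1067. The groups did not overlap, and Il4ra fell by 1.09 ± 0.17 on the log2 scale (SE; limma adjusted p = 0.0237). The call was lost without WT replicate 1 or 3 or CDK19KO replicate 2, 3 or 4 (limma adjusted p up to 0.247). Against the VAV libraries, at 1561, 1588, 1196 and 1292, the difference was -0.44 (limma adjusted p = 0.210).

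Ttyh1 (ENSMUSG00000030428; chromosome 7, 4119408 to 4136708, plus strand) encodes a tweety-family membrane protein known mainly from the nervous system. It stood at 85.0, 54.5 and 38.4 in WT and at 3.66, 3.40, 10.3 and 1.15 in CDK19KO. These were 99, 41 and 30 reads in WT against 3, 4, 11 and 1 reads in CDK19KO. All WT libraries were higher than all CDK19KO libraries, and WT itself ranged over more than a 2-fold span. Ttyh1 reached the mean of 10 needed for testing only through WT, since the 16 other libraries ran from 1.05 to 10.3. Its test therefore draws on the same WT values that let it in. Ttyh1 fell by 3.60 ± 0.60 on the log2 scale (SE; limma adjusted p = 0.0425), and the call was lost without any 1 of 6 libraries, CDK19KO replicate 3 being the exception (limma adjusted p up to 0.346). Its difference from VAV, where it stood at 4.38 to 8.39, was -0.72 (limma adjusted p = 0.532). The family members Ttyh2 (0.16) and Ttyh3 (-0.01) did not pass.

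**Figure D2:**
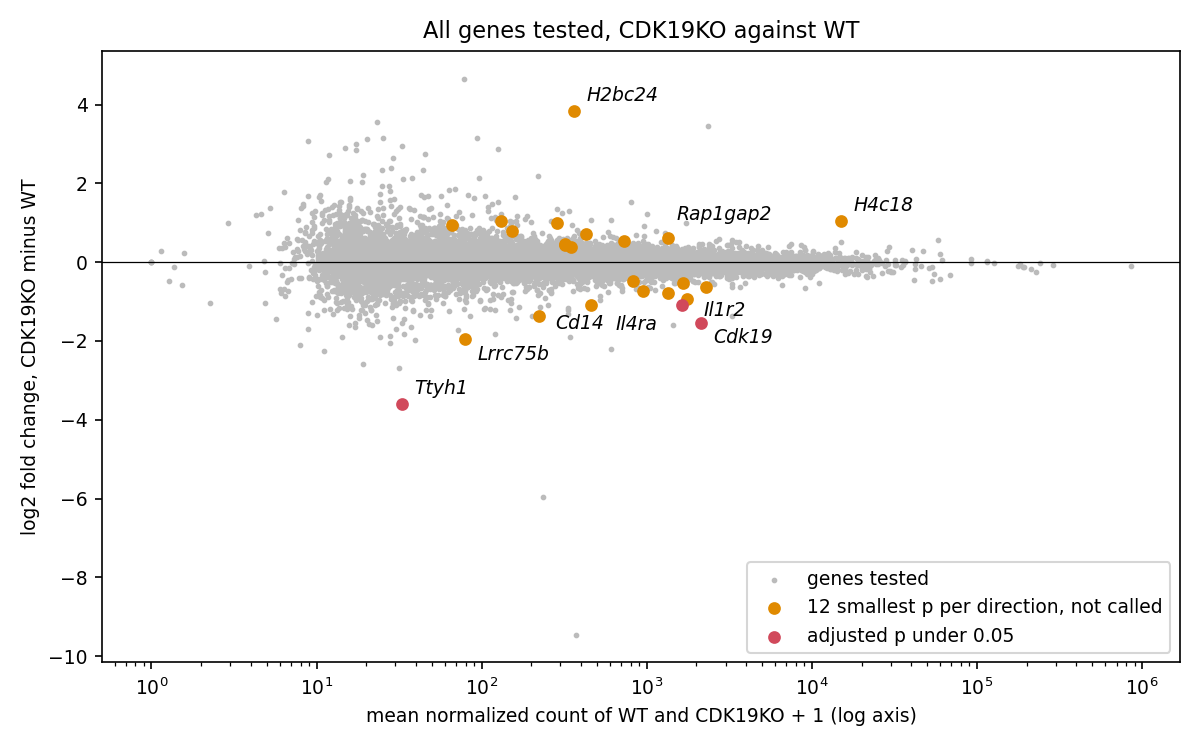
Log2 fold change of CDK19KO against WT for the 13976 genes tested, by mean normalized count on a log axis. Red points are the 3 genes that passed, orange points the other named genes with the smallest p in each direction; most genes lie near 0, and the spread widens below a mean of 50.

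The size of change that these libraries can exclude was read from the 95% intervals. For 10647 genes (76.2%) the interval lay within a 2-fold change in both directions, and for 49.2% within 1.5-fold. The share within 2-fold rose with the level, from 15.3% of the 2293 genes with a mean of 10 to 50 to 97.2% of the 814 genes with a mean of 5000 or more. An estimate beyond 2-fold was seen for 284 genes (2.03%), of which 204 had a mean of 10 to 50. For low genes a 2-fold difference was therefore often not excluded at this depth and number of libraries. These intervals are for 1 gene at a time, while a call needs the adjusted p. Genes of higher level could also miss the call with an estimate beyond 2-fold, as H4c18, Cd14 and Bcl3 did (values below).

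The pathway around Il4ra was measured with 20 of its 22 listed genes, while Il4 and Il13, the ligands, did not reach a mean of 10. Of the 20, 1 passed (Il4ra), beside 0.0215% of all genes tested, and none passed as higher. Estimates were above 0 for 7 and below 0 for 13, with a median of -0.08 against 0.00 over all genes. The partner chains were Il13ra1, which pairs with Il4ra in the type II receptor (2189, 1289.7 and 1811 in WT; 1526, 1119, 1003 and 1183 in CDK19KO; -0.53), and the common gamma chain Il2rg (-0.12). The groups overlapped for both. Jak1, Jak2, Jak3 and Tyk2, the receptor-bound kinases, were at -0.03, -0.17, -0.21 and 0.18.

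Stat6, the main transcription factor of this receptor, stood at 2361, 2559 and 2316 in WT and 2984, 2547, 2679 and 2835 in CDK19KO (0.19, 95% interval -0.06 to 0.45). The adaptor Irs2, which links the receptor to phosphatidylinositol kinase signalling, was at 1932, 1588 and 1702 in WT. It was at 1376, 1342, 1319 and 1290.1 in CDK19KO, below every WT library (-0.38 ± 0.11, SE; limma adjusted p = 1). Socs3, a feedback inhibitor of cytokine receptors, was at 469, 302 and 655 in WT and 278, 121, 186 and 166 in CDK19KO (-1.33 ± 0.50, SE; limma adjusted p = 1), and Socs1, another inhibitor, was at 0.46. Of the 18 STAT6 target genes tested none passed, 10 estimates were below 0, and the median was -0.04. Among them were Chil3, a chitinase-like gene of neutrophils and macrophages (-0.47), and Alox15, a lipoxygenase of eosinophils (1.06).

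No further gene passed, and 21 more are named because they had the smallest p among genes with no overlap and a mean of at least 50. Since that choice used the contrast itself, their values are a description. Of the 24 NF-kappaB and inflammatory genes listed and tested, which include Bcl3, none passed, 14 estimates were below 0 and the median was -0.08. Il1r2, the decoy receptor for interleukin-1, was at 2812, 1623 and 2529 in WT and 1441.5, 920.1, 1182 and 1248 in CDK19KO (-0.93 ± 0.22, SE; limma adjusted p = 0.706). Il1rap, the shared chain of interleukin-1 family receptors, was at 2078, 1231 and 1841 in WT and 1039, 944, 936 and 985 in CDK19KO (-0.78 ± 0.18, SE; limma adjusted p = 0.706). For both genes WT replicate 2 was the lowest WT library.

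Cd14, the co-receptor for lipopolysaccharide on monocytes, was at 383, 249 and 329.9 in WT. It was at 132, 111, 117 and 124 in CDK19KO, below every WT library (-1.38 ± 0.32, SE; limma adjusted p = 0.706). Bcl3, a nuclear partner of NF-kappaB, was at 639, 528 and 696 in WT and 361, 212, 284 and 320.2 in CDK19KO (-1.09 ± 0.28, SE; limma adjusted p = 0.765). Sbno2, a STAT3-responsive corepressor, was at -0.64, Kcnj2, an inward rectifier potassium channel, at -0.74, and Spata13 at -0.52. Slc25a30, a mitochondrial carrier, was at 1003, 951 and 914 in WT and 767, 731, 657 and 613 in CDK19KO (-0.47).

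Lrrc75b was the least even of these genes within a genotype. It was at 42.1, 90.4 and 259.6 in WT and 37.8, 17.8, 25.3 and 23.0 in CDK19KO (-1.95 ± 0.47, SE; limma adjusted p = 0.706). The lowest WT and the highest CDK19KO library almost met. DESeq2 called Il1r2, Il1rap, Cd14, Slc25a30 and Lrrc75b lower (DESeq2 adjusted p = 0.0408, 0.0408, 0.0203, 0.0408 and 0.00586).

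Among the 12 higher genes were 2 histone genes that lie next to each other on chromosome 13. H2bc24 (21833743 to 21837530) encodes a histone H2B and H4c18 (21831767 to 21832196) a histone H4; most replication-dependent histone transcripts lack a poly(A) tail, and the libraries were made from polyadenylated RNA. H2bc24 was at 32.6, 57.2 and 44.8 in WT and 894, 448, 435 and 947 in CDK19KO (3.83 ± 0.86, SE; limma adjusted p = 0.706). H4c18 was at 9381, 9929 and 9973 in WT and 20624, 17849.6, 19421 and 23049 in CDK19KO (1.05 ± 0.25, SE; limma adjusted p = 0.706). WT was low and even for both. For H2bc24, VAV, which keeps Cdk19, held 208 to 1125 reads against 38, 43 and 35 in WT. DESeq2 called both genes higher (DESeq2 adjusted p = 0.0408 for each). A limma fit of the 2 groups alone also called both (limma adjusted p = 0.00195 for H2bc24 and 0.00408 for H4c18). With array weights H4c18 was called higher (limma adjusted p = 0.0457). Histone genes have near-identical copies among which reads may be split, so both values are uncertain.

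Of the remaining higher genes, Rap1gap2, a GTPase-activating protein for Rap1 in platelets, was at 972, 1203 and 1020.5 in WT and 1789, 1369.6, 1659 and 1663 in CDK19KO (0.60 ± 0.14, SE; limma adjusted p = 0.706). With array weights Rap1gap2 was called higher (limma adjusted p = 0.0457). Mtmr14, a phosphoinositide phosphatase, was at 0.72, Zfp366, a zinc-finger regulator of dendritic cells, at 0.94, and Rragd, a GTPase of the mTORC1 nutrient pathway, at 1.04. In Rragd, CDK19KO replicate 4 (274) lay far above the other CDK19KO libraries (135 to 152), and that library is the one with the muscle transcripts; their part in the value was not tested. Gpd1, glycerol-3-phosphate dehydrogenase, was at 129, 106 and 98.5 in WT and 154, 185, 220.1 and 212 in CDK19KO (0.78). Mrps25, of the mitochondrial ribosome, was at 0.999, the glycerol and water channel Aqp9 at 0.54 and the adaptor Sash1 at 0.44. Abcg3, a transporter, was at 0.47 and the Golgi protein Tvp23b at 0.39.

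The 24 named genes, the 3 called ones included, were then followed through all 19 libraries. For 10 of them the 3 WT libraries lay outside the range of all 16 others, which include 8 libraries that keep Cdk19. These were Ttyh1, Il4ra, Il1r2, Cd14 and Slc25a30, with WT above, and Rap1gap2, H4c18, Mtmr14, Zfp366 and Rragd, with WT below. Over all genes tested WT stood apart in this way for 59 (0.422%), and over the 1063 genes with no overlap between WT and CDK19KO for 5.55%. The genes were chosen for lacking overlap between WT and CDK19KO, so the 41.7% among the 24 is not compared with these shares by a test.

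The WT position was plain in single genes. Cd14 was at 249 to 383 in WT, at 101 to 146 in VAV, at 48.2 to 188 in CDK8KO and at 115 to 161 in DKO. Il1r2 was at 1623 to 2812 in WT and at 733 to 1441.5 in the 16 other libraries. Zfp366 was at 41.2 to 49.8 in WT and at 66.3 to 129.8 in the others. With VAV in place of WT as the control, the estimates of Il1r2 (0.11), Slc25a30 (0.020), Rap1gap2 (-0.15), Zfp366 (-0.19) and Aqp9 (-0.059) had the opposite sign, although VAV also carries Cre and CDK19KO does not. WT is the only genotype with no modified allele or transgene, so genotype and any other difference between the WT libraries and the rest cannot be told apart.

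**Figure D3:**
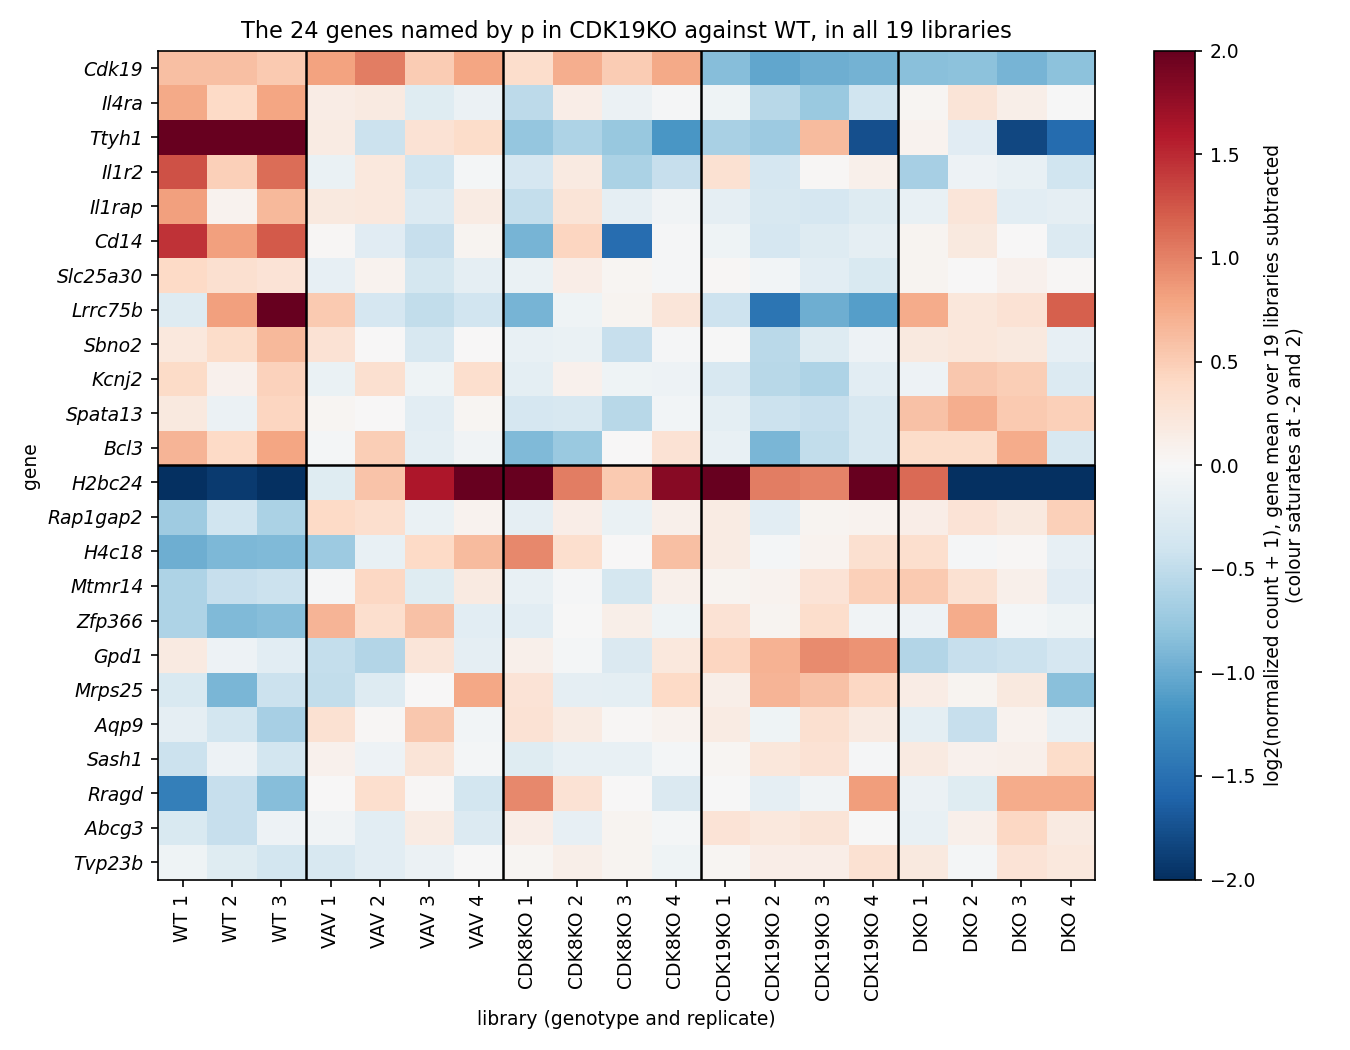
Log2(normalized count + 1) of the 24 named genes in each of the 19 libraries, with the gene's mean subtracted; red is above and blue below that mean, and lines separate the genotypes and the lower from the higher genes. Cdk19 is low in both CDK19KO and DKO, while Ttyh1, Il4ra, Il1r2 and Cd14 are high in the 3 WT libraries alone.

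The reverse case, CDK19KO outside the range of all 15 others, held for 22 genes (0.157%), 10 above and 12 below, and among the 24 for Gpd1 alone. Genes from here to the end of this paragraph were chosen after their values were seen. Klf5, a zinc-finger factor, was at 1661 to 1994 in WT and at 1556, 1434, 1406 and 1491 in CDK19KO, while VAV, CDK8KO and DKO were between 1909 and 2840.4. Chit1, a chitinase of macrophages, was at 71.3, 62.5 and 70.3 in WT and 36.6, 41.6, 29.0 and 45.9 in CDK19KO (-0.83). In DKO it was at 583, 644, 299 and 574, on the other side of the controls. Cd5l, a secreted protein of tissue macrophages, was at 213, 215 and 178 in WT and 257, 226, 332 and 255 in CDK19KO (0.39), and at 32.6 to 64.4 in DKO. The effects differed between the backgrounds for Chit1 (difference 3.30, limma adjusted p = 0.00120) and Cd5l (-1.87, limma adjusted p = 0.0446).

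Cdk19 loss can be read a second time, in DKO against CDK8KO, which share no library with the first comparison. There 238 genes passed (1.70%), 147 higher (1.05%) and 91 lower (0.651%). This count was 123 or 422 without CDK8KO replicate 1 or 4, 119, 139 or 105 without DKO replicate 2, 3 or 4, and 31 with these groups fitted alone. DESeq2 called 712, with 329 higher and 383 lower, so the balance of directions turned. Cdk8 overlapped between the CDK8KO libraries (692 to 1298, mean 1013) and VAV (789 to 1315, mean 994), a difference that was not tested, so the Cdk8 genotype of this background rests on the labels. Cdk19 fell there too (-1.44 ± 0.11, SE; limma adjusted p = 2.0e-07), and the difference between backgrounds of 0.10 did not pass (limma adjusted p = 0.895). Il4ra was at 976, 1549, 1304 and 1392.5 in CDK8KO and at 1446, 1679, 1531 and 1398 in DKO (0.23 ± 0.16, SE; limma adjusted p = 0.493). Il4ra was chosen by the first comparison, which is part of the difference between backgrounds. That difference passed for Il4ra (1.32, limma adjusted p = 0.0165). It no longer passed without CDK19KO replicate 2 or WT replicate 1 or 3 (limma adjusted p = 0.0559, 0.0681 and 0.0825), nor without the 2 libraries rich in muscle transcripts (0.0608). Ttyh1 was at 2.26 to 3.74 in CDK8KO and 1.05 to 6.64 in DKO (-0.05), and the difference of 3.55 did not pass (limma adjusted p = 0.110).

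Across the 13976 genes, as a description, the log2 fold changes of the 2 comparisons had a Pearson correlation of 0.03 and a Spearman correlation of -0.01. The signs were the same for 6948 genes (49.7%), for 219 of the 429 genes at an unadjusted p under 0.05 in the first comparison (51.0%), and for 10 of the 24 named genes. Among the 238 genes called in DKO against CDK8KO the signs were the same for 149 (62.6%), with a Pearson correlation of 0.28 and a Spearman correlation of 0.34. The difference between backgrounds passed for 21 genes in all (0.150%), of which 3 were among the 24: Il4ra, Spata13 and H2bc24. The 24 were chosen by the first comparison, which is part of this difference, so the 3 are a description and are not compared with the 0.150%. Spata13 was at 1163 to 1652 in CDK8KO and 2383 to 2843 in DKO, so it rose there (0.90 ± 0.12, SE; limma adjusted p = 5.4e-04), with a difference of 1.42. H2bc24 was at 1112, 444, 315 and 779.9 in CDK8KO and at 481, 19, 11.6 and 36.0 in DKO, where it fell (-3.68 ± 0.80, SE; limma adjusted p = 0.0224), with a difference of -7.52. DKO replicate 1 was far above the other DKO libraries.

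**Figure D4:**
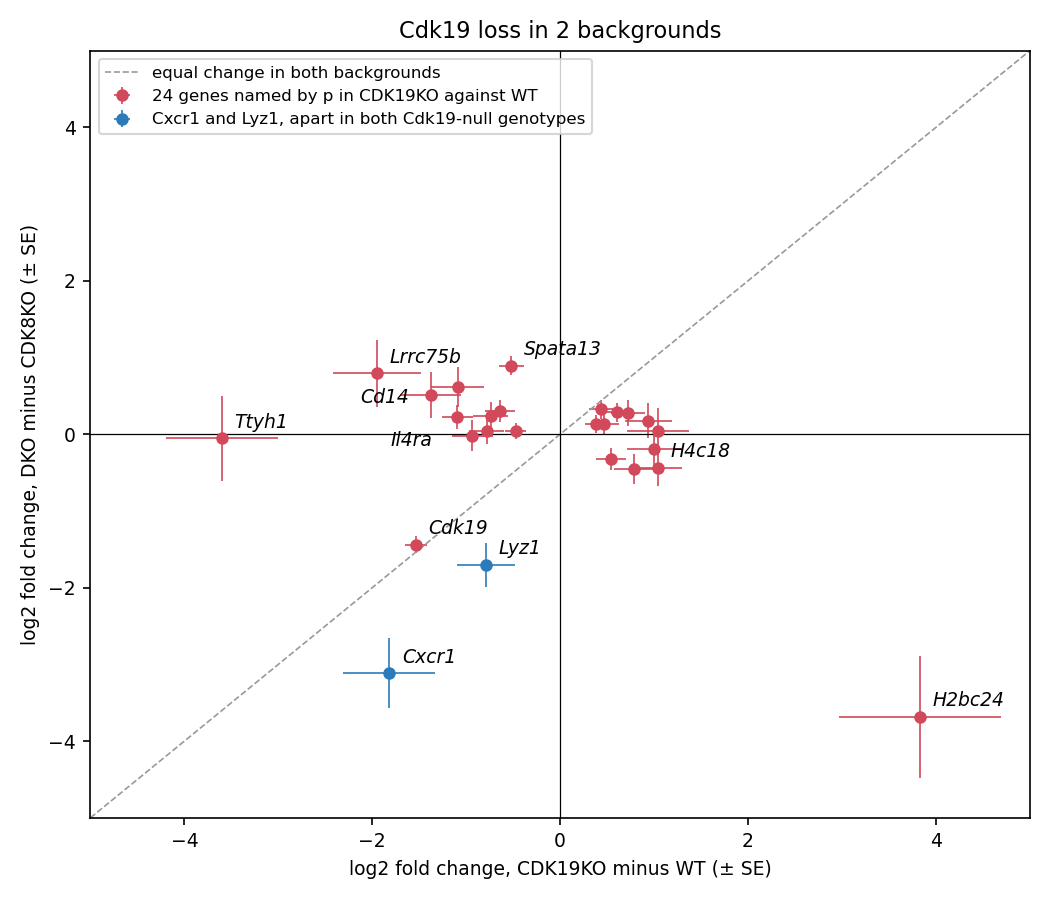
Log2 fold change of DKO against CDK8KO (vertical) by that of CDK19KO against WT (horizontal) for the 24 named genes (red) and for Cxcr1 and Lyz1 (blue), with SE bars; the dashed line marks equal changes. Cdk19 lies on the line at about -1.5, most other red points lie near 0 on the vertical axis, and H2bc24 lies at 3.83 and -3.68.

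The 8 libraries of CDK19KO and DKO lay outside the range of the 11 others for 3 genes (0.0215%), all lower: Cdk19, Cxcr1 and Lyz1. Cxcr1 and Lyz1, like the other genes of this paragraph, were chosen after their values were seen. Cxcr1, a chemokine receptor of neutrophils, was at 69.6, 43.9 and 42.2 in WT and 12.2, 18.7, 13.1 and 11.5 in CDK19KO (-1.82 ± 0.49, SE; limma adjusted p = 0.920). It was at 21.9 to 98.6 in CDK8KO and fell to 3.32, 1.73, 4.21 and 7.49 in DKO (-3.11 ± 0.45, SE; limma adjusted p = 9.4e-04). Lyz1, a lysozyme, was at 33.2 to 49.0 in WT, 17.0 to 26.8 in CDK19KO, 41.3 to 94.1 in CDK8KO and 17.3 to 23.2 in DKO. It did not pass in CDK19KO against WT (-0.79 ± 0.31, SE; limma adjusted p = 1) and fell in DKO against CDK8KO (-1.70 ± 0.29, SE; limma adjusted p = 0.004). Its reads may be shared with its close copy Lyz2.

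Averaged over both backgrounds, a contrast added after seeing the data, 38 genes passed (0.272%), 26 higher (0.186%) and 12 lower (0.0859%). Of these, 36 had the same sign in both, and in 36 the change was larger in DKO against CDK8KO, with Cdk19 and Fhl2 as the exceptions. Choosing genes by the average itself favours equal signs, so this count does not measure agreement between the backgrounds. Fhl2, a LIM-domain cofactor, was at 7.73, 17.3 and 6.39 in WT and 26.8, 28, 30.9 and 57.4 in CDK19KO (1.73 ± 0.49, SE). In DKO against CDK8KO it was at 1.71 ± 0.45 (SE; limma adjusted p = 0.0639). Dnase2b, a lysosomal DNase, was at 1.33 to 2.56 in WT and 6.80 to 10.3 in CDK19KO (1.78 ± 0.52, SE), and at 15.8 to 41.1 in DKO (2.43 ± 0.48, SE, limma adjusted p = 0.0129). Dnase2b reached the mean of 10 needed for testing only through DKO, where it is high (mean 30.8). Its WT values were below the 2.58 to 3.99 normalized counts that a count of 0 allows there. Asprv1, a neutrophil protease gene, was at 570.3 to 783 in WT, 253 to 537 in CDK19KO and 19.5 to 36.5 in DKO; its changes of -0.96 and -4.87 differed (difference -3.91, limma adjusted p = 8.0e-04). The macrophage receptor gene Cd163, at -0.59 and -2.98, differed as well (difference -2.38, limma adjusted p = 8.0e-04).

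The gene lists of marrow cell types held no member past the test in CDK19KO against WT. Beside them, 50.2% of all genes had an estimate above 0 and the median was 0.00. In bulk marrow, fewer cells of a type and less RNA per cell cannot be told apart. Of the T cell genes, 21 of 25 estimates were below 0 (median -0.24). Their median was 0.02 without WT replicate 1 and -0.53 without WT replicate 2. Summed over the list, WT libraries held 3077 to 5477 normalized counts and CDK19KO libraries 3165 to 3970, so the groups overlapped. NK cell genes were above 0 for 12 of 18 (median 0.29), and their median ran from 0.04 to 0.49 with 1 library left out. Of the mature B cell genes 21 of 24 were below 0 (median -0.28), while 15 of 18 B cell precursor genes were above (median 0.11). The precursor median was 0.02 without CDK19KO replicate 1, whose own list median was 0.46, and 0.18, 0.20 and 0.22 without CDK19KO replicate 2 or 3 or WT replicate 3. Mature B cell genes had a median of -0.19 when WT replicate 1 or CDK19KO replicate 3 was left out.

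Erythroid genes were above 0 for 27 of 31 (median 0.18), with library medians from -0.32 to 0.47 in CDK19KO and -0.13 to 0.17 in WT. Without CDK19KO replicate 1 this median was 0.35, without replicate 2 or 3 it was 0.08 and 0.09, and without WT replicate 3 it was 0.09. Late neutrophil genes were below 0 for 21 of 27 (median -0.18; -0.08, -0.10 and -0.10 without WT replicate 1 or CDK19KO replicate 2 or 3). Padi4, a neutrophil enzyme that citrullinates histones, was at 0.40 and Asprv1 at -0.96. Megakaryocyte and platelet genes were spread widely within CDK19KO, with library medians of -0.90, 1.04, -0.44 and 0.05, against -0.13 to 0.23 in WT. Monocyte and macrophage genes were split evenly, 14 above and 14 below. Among stem and progenitor genes, 17 of 23 were above 0 (median 0.08), with Meis1, a homeobox factor of stem cells, at 334, 372 and 350.4 in WT and 443, 446, 418 and 443 in CDK19KO (0.31; limma adjusted p = 1). The estimates of this list ran from -1.20 to 0.86. With 1 library left out, Hoxa10 ranged from -1.50 to -0.66 and Mecom from 0.43 to 1.26.

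**Figure D5:**
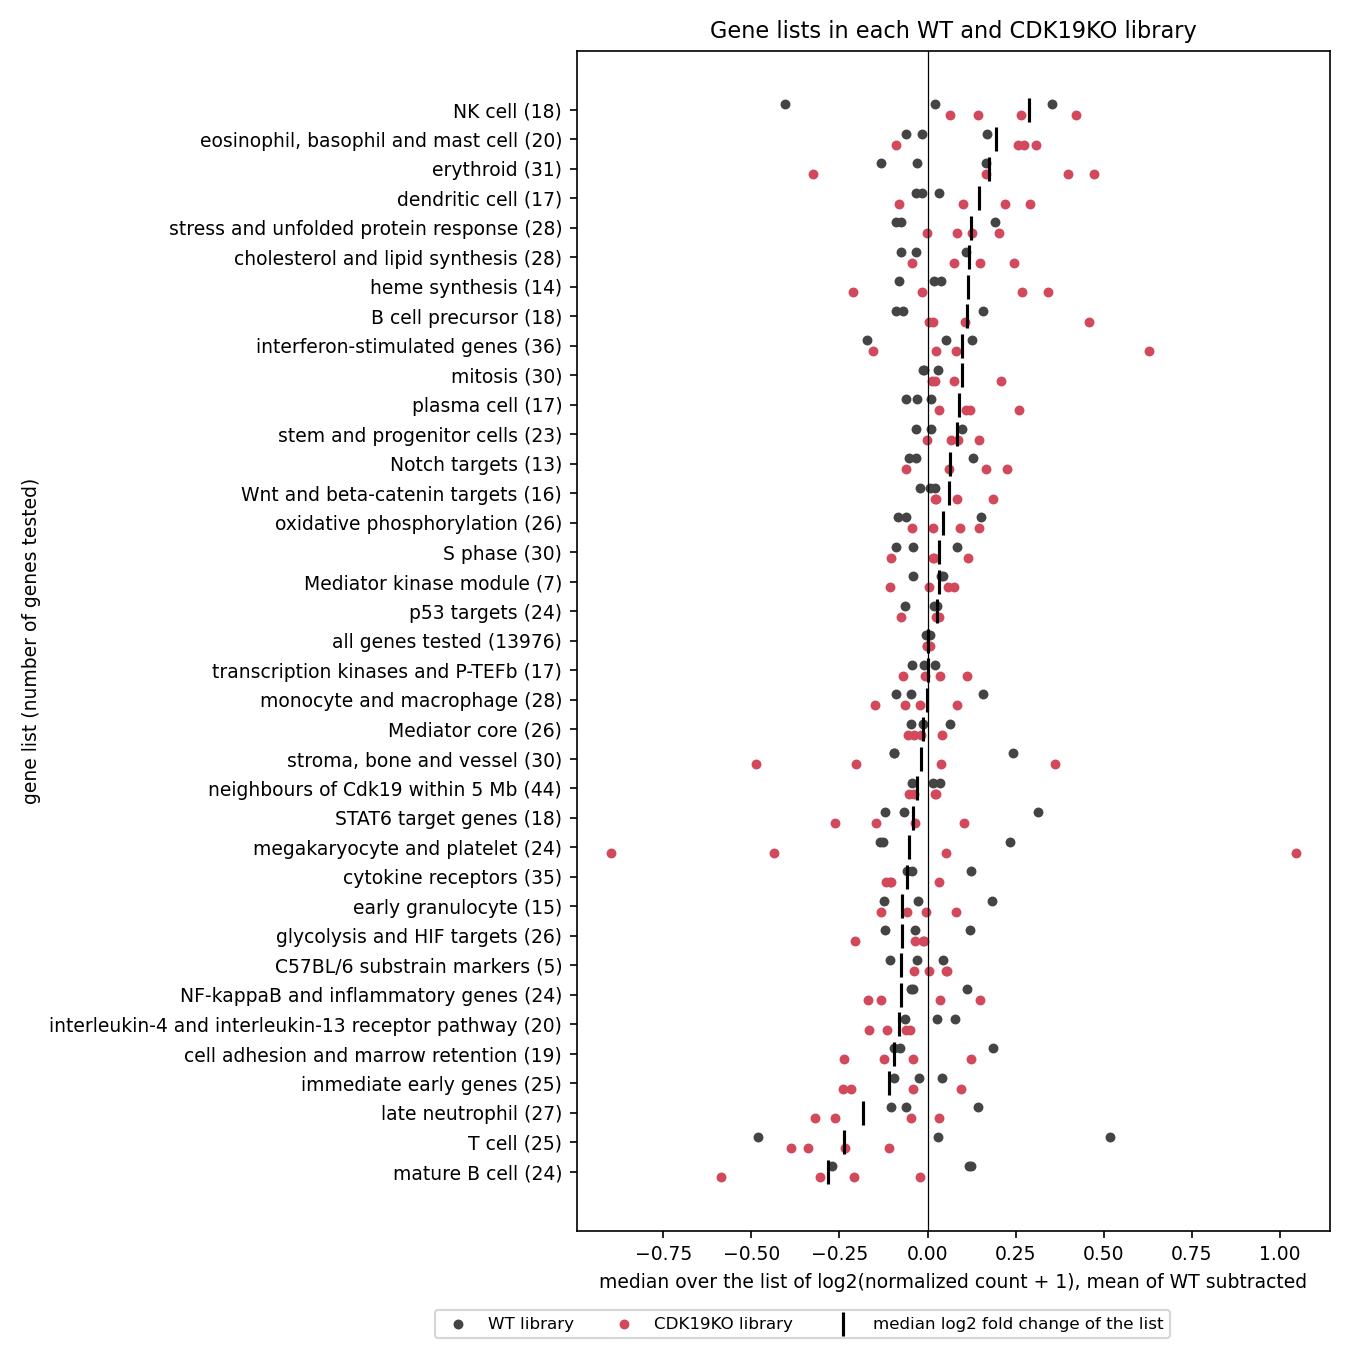
Median over each gene list of log2(normalized count + 1), with the mean of WT subtracted, in each WT (grey) and CDK19KO (red) library; the black bar is the median log2 fold change of the list and the number of genes tested is in brackets. The skeletal muscle list is left out, since CDK19KO replicate 4 lies at 6.72. The T cell list overlaps between genotypes, and the megakaryocyte and platelet list reaches from -0.90 to 1.04 in CDK19KO.

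Signalling and metabolic lists were also without called members, apart from the interleukin-4 pathway and the kinase module. Interferon-stimulated genes were above 0 for 31 of 36 (median 0.10), and CDK19KO replicate 1 alone had a list median of 0.63, against -0.15 to 0.08 in the other CDK19KO libraries. Without that library the median was -0.03. Cmpk2, a mitochondrial nucleotide kinase induced by interferon, was at 1079.8, 1373 and 1203 in WT and 1877, 1653, 1547 and 1458 in CDK19KO (0.42). Mitosis genes were above 0 for 25 of 30 (median 0.10) and S phase genes for 19 of 30 (median 0.03), and all 30 intervals of each list lay within a 2-fold change. Immediate early genes were below 0 for 18 of 25 (median -0.11). Among them Myc was at 3857, 2469 and 2872 in WT and 1711, 2442, 2105 and 2024 in CDK19KO (-0.55; limma adjusted p = 1). Slc2a1, the glucose transporter of the glycolysis list, was at 868, 577 and 744 in WT and 494, 355, 339.9 and 534 in CDK19KO (-0.77). Mvk, a mevalonate pathway kinase, was at 0.72, and the cholesterol and lipid synthesis list had 19 of 28 above 0 (median 0.12).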

How the data were processed

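The authors deposited normalized counts per gene (a signal: whole-read counts scaled by a constant in each library). Salmon 1.4.0, DESeq2 and the mm10 build are named, without roles, in the submitters' processing notes. The annotation release and filters are not given in the sources used here. In all 19 libraries 100% of values were whole multiples of 1 step (tolerance 0.001 read), so whole reads were recovered; 3 genes were called on them by edgeR and 12 by DESeq2. Replicates were not duplicates (lowest chi-square per degree of freedom 15.5). A count of 0 allows up to 3 reads, 2.58 to 3.99 normalized counts in WT and 2.55 to 3.66 in CDK19KO, for counting error only.

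Genes with a mean of at least 10 were log-transformed, log2(normalized count + 1). One linear model over all 5 genotypes, with no covariate, was run in limma 3.58.1 (R 4.3.3; eBayes with trend). P-values were adjusted by Benjamini-Hochberg over 13976 genes. The method was tested on simulated reads in which some genes changed in CDK19KO alone. That setting holds neither a WT level apart from all other genotypes nor a muscle-rich library, and no result here rests on it. Coordinates are GENCODE vM21 (GRCm38/mm10; 13965 of the tested genes matched), and promoters are RefSeq, GRCm38.p6.

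Named were every called gene; per direction the 12 genes with the smallest p, a mean of at least 50 and no overlap; the kinase module, Tweety family and interleukin-4 pathway; and up to 3 genes of each other list. The name rule passed over antigen-receptor gene segments, predicted genes and genes linked to sex. Members and lists were chosen with earlier results of these data known. Alternatives were DESeq2 1.42.0, edgeR 4.0.16, TMM scaling, array weights, pseudocounts of 0.5 and 5, no filter and a mean of at least 50, only the 2 groups in the fit, other controls, a replicate block, and leaving out libraries.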

Additional observations from a re-analysis of the deposited data

Results flagged for a closer look

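In 10 of the 146 genes named (6.85%), 1 of the 4 CDK19KO libraries lay far from the other 3 by Dixon's test, a share near the 1 in 20 that chance gives. Replicate 1 was high for Pik3cd (3621 normalized counts) and the interferon regulator Irf7 (682), and low for Pdgfrb (109) and Ibsp (429), genes of stroma and bone. Replicate 3 was low for Chil3 (36781) and the stem cell factor Meis1 (418), and high for Ccnt1 (3148). Replicate 4 was high for Rragd (274) and for the muscle genes Mylpf (566) and Eno3 (620; the other CDK19KO libraries held 84.1 to 109), as was its share of muscle reads.

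By limma's test of the difference, DKO minus CDK8KO differed from CDK19KO minus WT for Il4ra (1.32, limma adjusted p = 0.0165), H2bc24 (-7.52, limma adjusted p = 0.00611) and Spata13 (1.42, limma adjusted p = 8.0e-04). These genes were chosen by the first comparison, which is part of this difference, so the values are a description. Il4ra was higher in WT than in all 16 other libraries. H2bc24 had 38, 43 and 35 reads in WT, 208 to 1125 in VAV, which keeps Cdk19, and 465 to 825 in CDK19KO. The part of the WT level in these differences was not tested. For Il4ra the difference did not pass with a replicate block (limma adjusted p = 0.0652), without CDK19KO replicate 2 or WT replicate 1 or 3 (0.0559, 0.0681 and 0.0825), or without the 2 muscle-rich libraries (0.0608). For H2bc24 it did not pass in edgeR (edgeR adjusted p = 0.0825) or without the muscle-rich libraries (limma adjusted p = 0.0544). Il4ra fell in the first background and did not pass in the second, Spata13 rose in the second and did not pass in the first, and H2bc24 fell in the second after an estimate of 3.83 in the first.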

How the results depend on the processing

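The direction and call of Cdk19 held under every alternative run (-1.57 to -1.50 with 1 library left out). The count of 3 genes in CDK19KO against WT was 12 under DESeq2 and also 12 against VAV, 1 against WT and VAV together, 7 under array weights, 6 without a filter, 1 without the 2 libraries rich in muscle transcripts, 38 for the average of 2 backgrounds, and 1 to 2 with 1 library left out. Replicate numbers did not pair the samples (correlations of deviations 0.13, -0.04 and 0.04); with a replicate block the count was 1, with Il4ra at -1.09 and Ttyh1 at -3.45 (limma adjusted p = 0.153 and 0.208). Il4ra and Ttyh1 also lost the call against VAV (-0.44 and -0.72), against WT and VAV together (-0.72 and -1.95), in a fit of the 2 groups alone (-1.09 and -3.60), without the muscle-rich libraries (-1.11 and -3.22) and in the average of 2 backgrounds (-0.43 and -1.83). Ttyh1 alone lost it with a pseudocount of 0.5 (-3.78). With 1 library left out they ranged from -1.22 to -0.996 and from -4.02 to -3.22. Against VAV the estimate reversed for Rap1gap2 (-0.15), Zfp366 (-0.19), Aqp9 (-0.059), Il1r2 (0.11) and Slc25a30 (0.020), and in the average of 2 backgrounds for Spata13 (0.19). The 238 genes of DKO against CDK8KO were 712 under DESeq2, 106 under array weights, 31 in a fit of these groups alone, 92 without the muscle-rich libraries and 105 to 422 with 1 library left out. Of the named genes, the difference between backgrounds passed for 12 with DESeq2, 6 with array weights and 1 without the muscle-rich libraries, against 3. The causes were not tested. Of 37 list medians, 25 changed sign under some alternative. Depth limits low genes most: of those with a mean of 10 to 50, 15.3% had an interval within a 2-fold change.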

Other observations

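2 pseudogenes that the rule for named genes did not reach, chosen after their values were seen, were present or absent by library. Rps6-ps4, a processed pseudogene of a ribosomal protein gene, was at 767, 445 and 1006 normalized counts in WT and had 0 reads in all 4 CDK19KO libraries. It also had 0 reads in 2 VAV, 3 CDK8KO and 2 DKO libraries, and 1021 to 3074 normalized counts in the others of those genotypes. Gm10925, an unprocessed pseudogene, had 0 reads in all CDK19KO and DKO libraries and in WT replicate 3, and 1216 and 194 normalized counts in the other WT libraries. DESeq2 called both lower, and limma called neither (adjusted p = 1 for both). How reads were divided among near-identical copies is not given in the sources used here, so these values are uncertain.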
